A study of Mus musculus with 4 samples.

Results

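Legumain (Lgmn) and the cathepsins are proteases of the lysosome, and their transcripts were examined here in mouse cumulus cells (CCs), which enclose the oocyte of an antral follicle. A list of 10 genes was followed: Lgmn, Ctsa, Ctsb, Ctsc, Ctsd, Ctsh, Ctsk, Ctsl, Ctss and Ctsz. All probes listed under these symbols in the deposited signal table were kept, which gave 12 of 25697 probes and 9 of the 10 genes. No probe is listed under Ctsa, but 4 probes listed under its older name PPGB are annotated as Ctsa, and they are described apart from the 12. The list was chosen by the measured difference of Lgmn, which was higher in NSN-CCs on these arrays, so that difference is described and not tested.

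The study compared CCs by the quality of the oocyte they had enclosed. The CCs were pooled as SN-CCs when the oocyte had a ring of chromatin around its nucleolus, the type known to be developmentally competent, and as NSN-CCs when the ring was absent, the incompetent type. Each type was represented by 2 pools, described as biological replicates, and each pool was hybridised to its own Illumina mouse BeadChip (n = 2 for each type). All donors were B6C3F1 females, 6 weeks old according to the labels, that had received folligon, a gonadotropin that stimulates follicle growth, 48 hours earlier. A pool holds cells of many COCs (cumulus-oocyte-complexes), so the spread between pools is not the spread between animals, and the oocytes were sorted by chromatin alone. The labels give the tissue as oocytes, whereas the titles, source names and methods say cumulus cells. Cyp19a1, the aromatase of granulosa and cumulus cells, gave signals of 10576 and 13592 in the SN-CCs pools against 11581 and 12000 in the NSN-CCs pools. Gdf9, a growth factor made by the oocyte, was also measured, with 1250 and 1482 in the SN-CCs pools against 1012 and 979.9 in the NSN-CCs pools. In bulk pools of this kind, fewer cells that express a gene and less RNA per cell cannot be told apart.

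One array, that of SN-CCs replicate 2, differed from the rest. Its normalised log2 values correlated across all probes (Pearson) at 0.930 to 0.934 with those of the other 3 arrays, which correlated at 0.993 to 0.995 with each other. Signals are intensities in arbitrary units, with the background not subtracted. As a background limit served the 95th percentile of the 1350 probes for chemosensory receptors, genes of smell and taste, which was 116 to 120 depending on the array. In total 11763 probes were above this limit on SN-CCs replicate 2 and 13543 to 13731 on the other 3 arrays. All 12 legumain and cathepsin probes were above it on all 4 arrays. Signals were then background corrected, quantile normalised and compared as log2 values with limma. A log2 fold change above 0 means a higher value in NSN-CCs. The member values are also given without SN-CCs replicate 2, where the lone SN-CCs array was assumed to vary as the NSN-CCs arrays did.

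Lysosomal proteases are made as inactive precursors that are sorted to the lysosome and cut into their active form at acid pH. Most cathepsins are cysteine proteases (Ctsb, Ctsc, Ctsf, Ctsh, Ctsk, Ctsl, Ctss and Ctsz), whereas Ctsd is an aspartic protease and Ctsa a serine carboxypeptidase. Legumain is a cysteine protease of another family that cuts after asparagine, and it can trim cathepsins B, H and L from their single-chain to their multi-chain form. In the ovary lysosomal proteases take part in protein turnover in follicles and in the remodelling of tissue around ovulation, and cathepsin L is known to be induced in mouse granulosa cells of preovulatory follicles. Many lysosomal genes carry near their start an E-box, the letters CACGTG, which is the core of the element read by the transcription factor TFEB.

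The stretches before the gene starts are shown for the members in which this E-box was found. They include Lgmn and Ctsl, whose probes had the highest log2 fold changes of the 12 with all 4 arrays. They also include Ctsd, whose probe had one of −0.32, and Ctsa, whose probes had both signs. Without SN-CCs replicate 2 Ctsl had 0.097, below the Ctsz probes (0.37 and 0.36), and Ctsd had −0.17. The RefSeq promoter table (build GRCm38.p6) holds 10 starts for 8 of the members, namely Lgmn, Ctsa, Ctsc, Ctsd, Ctsk, Ctsl, Ctss and Ctsz. Within the 250 bases before each start, CACGTG, which reads the same on both strands, was found before 4 of these 10 starts (40%), 1 each of Lgmn, Ctsl, Ctsa and Ctsd. Of all 32851 promoters of the same length, 1978 (6.02%) hold it. A match is a description of the letters only. Tfeb itself was above the background limit on no array. Its brightest probe gave 96.5 and 86.6 in the SN-CCs pools against 92.4 and 102 in the NSN-CCs pools. Of the other lysosomal transcription factors listed, Tfec and Mitf were above the limit on no array and Tfe3 on all. Their part in the values of the members was not tested. The sequences run 5′ to 3′ on the strand of the gene and end 1 base before its start, with CACGTG in capitals. That of Lgmn lies at chr12:102439093-102439342 on the minus strand, that of Ctsl at chr13:64370521-64370770 on the minus strand, that of Ctsa at chr2:164833523-164833772 on the plus strand and that of Ctsd at chr7:142387828-142388077 on the minus strand.
Lgmn: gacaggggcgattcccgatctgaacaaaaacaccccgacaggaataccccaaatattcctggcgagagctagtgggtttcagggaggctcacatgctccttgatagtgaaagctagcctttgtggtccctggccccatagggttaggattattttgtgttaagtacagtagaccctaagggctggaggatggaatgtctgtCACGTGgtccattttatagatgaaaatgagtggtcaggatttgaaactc
Ctsl: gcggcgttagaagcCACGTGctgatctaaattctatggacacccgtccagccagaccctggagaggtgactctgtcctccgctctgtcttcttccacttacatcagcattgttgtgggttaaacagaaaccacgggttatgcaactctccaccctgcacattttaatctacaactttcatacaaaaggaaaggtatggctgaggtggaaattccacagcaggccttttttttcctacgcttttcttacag
Ctsa: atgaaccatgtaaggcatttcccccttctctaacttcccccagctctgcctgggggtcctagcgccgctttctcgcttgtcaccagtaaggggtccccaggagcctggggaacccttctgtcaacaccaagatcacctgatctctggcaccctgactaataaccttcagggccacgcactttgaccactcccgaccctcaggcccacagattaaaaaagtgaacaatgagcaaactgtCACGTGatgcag
Ctsd: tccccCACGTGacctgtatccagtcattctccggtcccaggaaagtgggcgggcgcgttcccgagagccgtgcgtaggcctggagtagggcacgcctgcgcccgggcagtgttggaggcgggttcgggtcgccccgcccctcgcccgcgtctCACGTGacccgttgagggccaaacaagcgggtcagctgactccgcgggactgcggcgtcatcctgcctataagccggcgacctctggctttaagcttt
The E-box begins 49 bases before the start of Lgmn, 236 bases before that of Ctsl and 12 bases before that of Ctsa, and Ctsd has 2 of them, 245 and 98 bases before the start. The stretch before the other listed start of Lgmn (chr12:102439729-102439978) does not hold these letters, nor does that before the other start of Ctsa. Ctsk and Ctss lie on chromosome 3 with 1 gene listed between them, and neither has the E-box in its 250 bases.

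The Lgmn transcript was higher in both pools of NSN-CCs than in both pools of SN-CCs, and the size of this difference rested largely on 1 array. The single Lgmn probe (ILMN_2597868) gave signals of 1220.5 and 189 in the SN-CCs pools against 1700 and 1647 in the NSN-CCs pools. The NSN-CCs pools were close to each other, whereas SN-CCs replicate 2 was far below the other 3 arrays, at 0.155 of the signal of SN-CCs replicate 1. On the normalised log2 scale the mean level was 8.98 ± 1.56 (SD, n = 2) in SN-CCs and 10.72 ± 0.049 (SD, n = 2) in NSN-CCs. The log2 fold change was 1.74 (SE 0.77, the moderated standard error of limma), or 3.35-fold. It was 0.64, or 1.56-fold, without SN-CCs replicate 2. The step from SN-CCs replicate 1 to SN-CCs replicate 2, −2.20 on the log2 scale, was larger in size than the whole difference between the types of CCs. Of all probes, 408 (1.588%) had a step as low or lower. In the table that the authors normalised themselves, Lgmn was listed at 1064 and 280.0 in SN-CCs and at 1582 and 1532 in NSN-CCs, with a log2 fold change of 1.51.

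**Figure D1:**
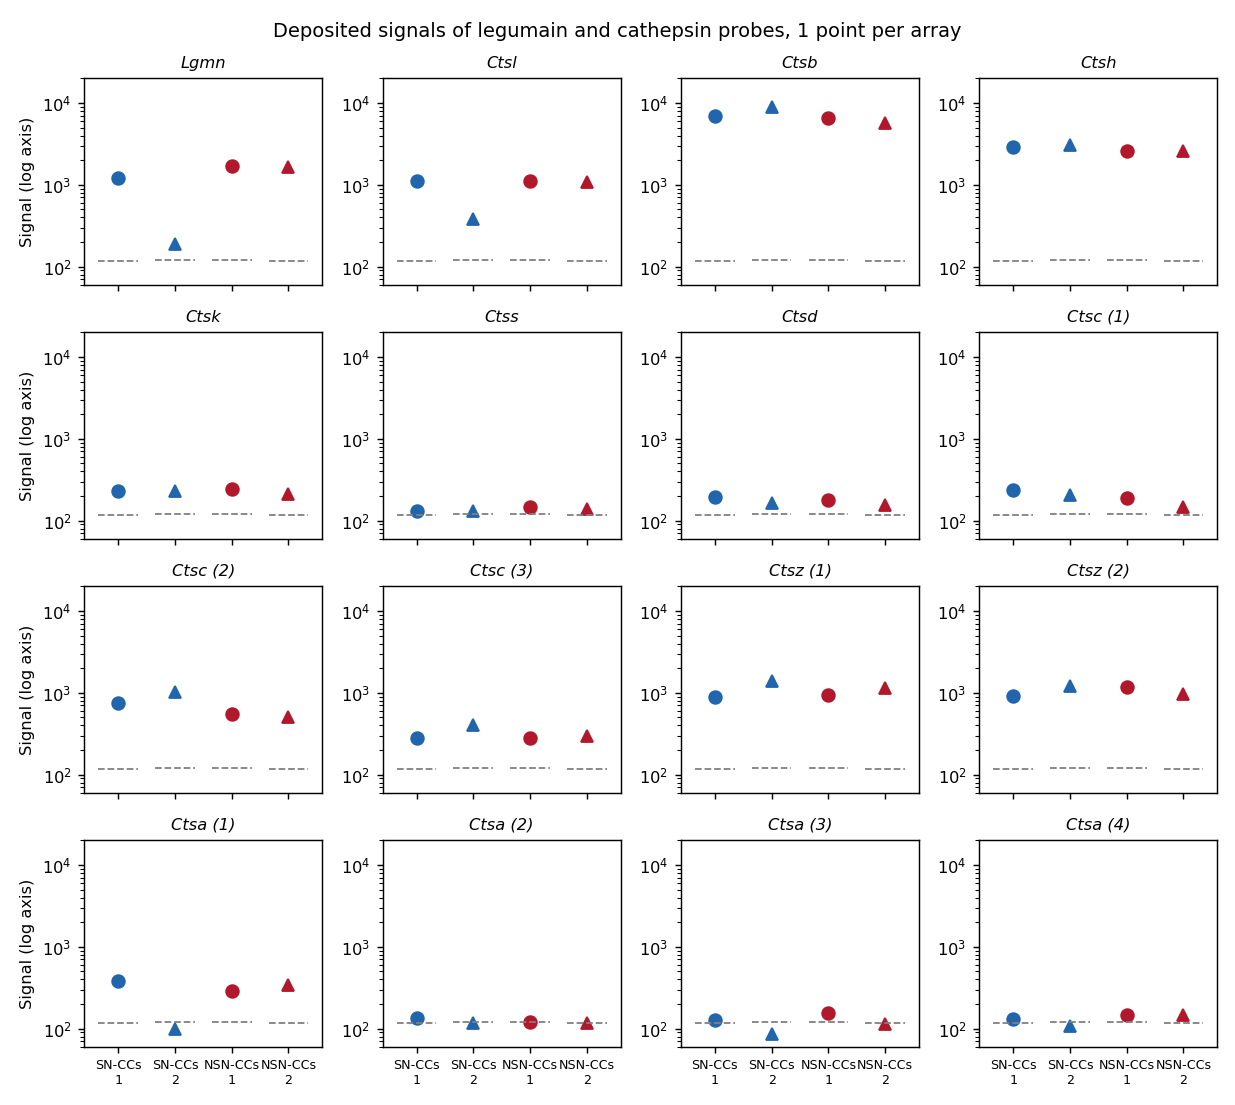
Deposited signal (log axis, arbitrary units) of each legumain and cathepsin probe on the 4 arrays, with 1 point per array, blue for SN-CCs and red for NSN-CCs, circles for replicate 1 and triangles for replicate 2. Dashed lines are the background limits, 116 to 120. Genes with several probes are numbered by probe: Ctsc ILMN_1238486, ILMN_3008858 and ILMN_3008859, Ctsz ILMN_2666007 and ILMN_2839569, and Ctsa ILMN_1213617, ILMN_2681631, ILMN_3045359 and ILMN_3120827. SN-CCs replicate 2 lies far below the other arrays in the panels of Lgmn, Ctsl and the first Ctsa probe.

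None of the 11 cathepsin probes found under these symbols differed between NSN-CCs and SN-CCs at an adjusted p under 0.05 from limma with Benjamini-Hochberg adjustment over all probes. Their adjusted p lay between 0.811 and 0.991, and of all 25697 probes 0 (0%) passed. At an unadjusted p under 0.05 there were 800 probes in all (3.11%), 281 higher (1.09%) and 519 lower (2.02%) in NSN-CCs. Among the 11 cathepsin probes 1, of Ctsc, was lower at this level and 0 were higher. Without SN-CCs replicate 2, 0 of the 11 passed the adjusted threshold, which 1 of all 25697 probes (0.00389%) did. In that setting 2 were higher and 2 lower at an unadjusted p under 0.05, where 5.68% and 5.6% of all probes were. An exact permutation test of 2 pools against 2 cannot give a two-sided p below 0.333, so no single probe could pass it. The limma p-values set a difference against the spread between these pools only, moderated over all probes, and not against the spread between animals.

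Ctsl, a cysteine endopeptidase that acts broadly in protein breakdown, was the cathepsin with the highest log2 fold change among the 11. Its probe (ILMN_2904703) gave signals of 1129 and 378 in the SN-CCs pools against 1109 and 1071 in the NSN-CCs pools. Only SN-CCs replicate 2 was set apart, at 0.335 of the signal of SN-CCs replicate 1. The mean log2 level was 9.42 ± 0.78 (SD, n = 2) in SN-CCs and 10.07 ± 0.047 (SD, n = 2) in NSN-CCs. This gave a log2 fold change of 0.65 (SE 0.40, limma adjusted p = 0.811). It was 0.097 without SN-CCs replicate 2. After normalisation both NSN-CCs arrays lay above both SN-CCs arrays, although in the deposited signals SN-CCs replicate 1 was the highest. The step between the SN-CCs pools was −1.10 on the log2 scale, and 1531 probes (5.958%) had one as low or lower.

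Ctsb, Ctsh and Ctsz, which mainly cut peptides from their ends, had log2 fold changes between −0.12 and 0.015. Ctsb (ILMN_2683316) had signals of 6867 and 9059 in the SN-CCs pools against 6624 and 5735 in the NSN-CCs pools. Its log2 fold change was −0.12 (SE 0.19, limma adjusted p = 0.870), and 0.056 without SN-CCs replicate 2. Here SN-CCs replicate 2 was the highest array, the opposite of its place for Lgmn and Ctsl. Ctsh (ILMN_2872058), an aminopeptidase, had signals of 2928 and 3055 in the SN-CCs pools against 2618 and 2574 in the NSN-CCs pools. Both NSN-CCs arrays lay below both SN-CCs arrays, by little: the log2 fold change was −0.061 (SE 0.13, limma adjusted p = 0.910) and −0.025 without SN-CCs replicate 2. Ctsh had the smallest step between the SN-CCs pools among the 12 probes, 0.073 on the log2 scale. Ctsz, a carboxypeptidase, was measured by 2 probes. The first (ILMN_2666007) gave 891 and 1379 in the SN-CCs pools against 947 and 1144 in the NSN-CCs pools. The second (ILMN_2839569) gave 911 and 1213 in the SN-CCs pools against 1164 and 957 in the NSN-CCs pools. On both probes the groups overlapped, with log2 fold changes of −0.070 (SE 0.35) and 0.015 (SE 0.29). Without SN-CCs replicate 2, which was the highest array on both, they were 0.37 and 0.36.

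Ctsc, the dipeptidyl peptidase that activates the serine proteases of immune cell granules, was the member whose probes had the lowest log2 fold changes. Its 3 probes differed in how far the groups were apart. ILMN_3008858 gave signals of 755 and 1012 in the SN-CCs pools against 556 and 504 in the NSN-CCs pools, and ILMN_1238486 gave 235 and 205 in the SN-CCs pools against 191 and 146 in the NSN-CCs pools. On both probes the NSN-CCs arrays lay below the SN-CCs arrays. The log2 fold change was −0.80 (SE 0.30) on the first and −0.65 (SE 0.23) on the second, at an unadjusted p of 0.0506 and 0.0442 and an adjusted p of 0.811 from limma. Without SN-CCs replicate 2 they were −0.42 and −0.45, so the direction held on these probes with the array left out. The third probe, ILMN_3008859, gave 280.3 and 408 in the SN-CCs pools against 278 and 300.1 in the NSN-CCs pools, and only SN-CCs replicate 2 stood out. Its log2 fold change was −0.43 (SE 0.40), and 0.12 without that array.

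Ctsd, Ctsk and Ctss gave signals closer to the background limit, as did ILMN_1238486 of Ctsc, whose signals lay between 146 and 235. Ctsd (ILMN_2987685), the main aspartic protease of lysosomes, had signals of 192 and 162 in the SN-CCs pools against 179 and 156 in the NSN-CCs pools. After normalisation both NSN-CCs arrays were below both SN-CCs arrays, with a log2 fold change of −0.32 (SE 0.18, limma adjusted p = 0.811), and −0.17 without SN-CCs replicate 2. Ctsk (ILMN_2711163), the collagen-degrading cathepsin of osteoclasts, had signals of 227 and 228 in the SN-CCs pools against 244 and 212 in the NSN-CCs pools. Its log2 fold change was −0.23 (SE 0.26, limma adjusted p = 0.826), and 0.071 without that array. Ctss (ILMN_1246861), known for its part in antigen presentation, had signals of 129 and 130.3 in the SN-CCs pools against 145 and 139.8 in the NSN-CCs pools. In these deposited signals both NSN-CCs arrays were above both SN-CCs arrays, but after normalisation the groups overlapped (log2 fold change −0.026, SE 0.17, limma adjusted p = 0.975, and 0.14 without SN-CCs replicate 2).

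Ctsa, which protects lysosomal neuraminidase and beta-galactosidase from breakdown besides its own peptidase activity, could be followed only through the probes listed as PPGB, and 0 of these 4 were above the limit on all arrays. The brightest (ILMN_1213617) gave signals of 386 and 98.7 in the SN-CCs pools against 289 and 338 in the NSN-CCs pools. As for Lgmn, SN-CCs replicate 2 was far below the other 3 arrays, and here it was under its background limit. The log2 fold change was 0.74 (SE 0.69), and −0.24 without that array. The other 3 probes had signals between 84.9 and 154 and log2 fold changes between −0.20 and 0.38.

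**Figure D2:**
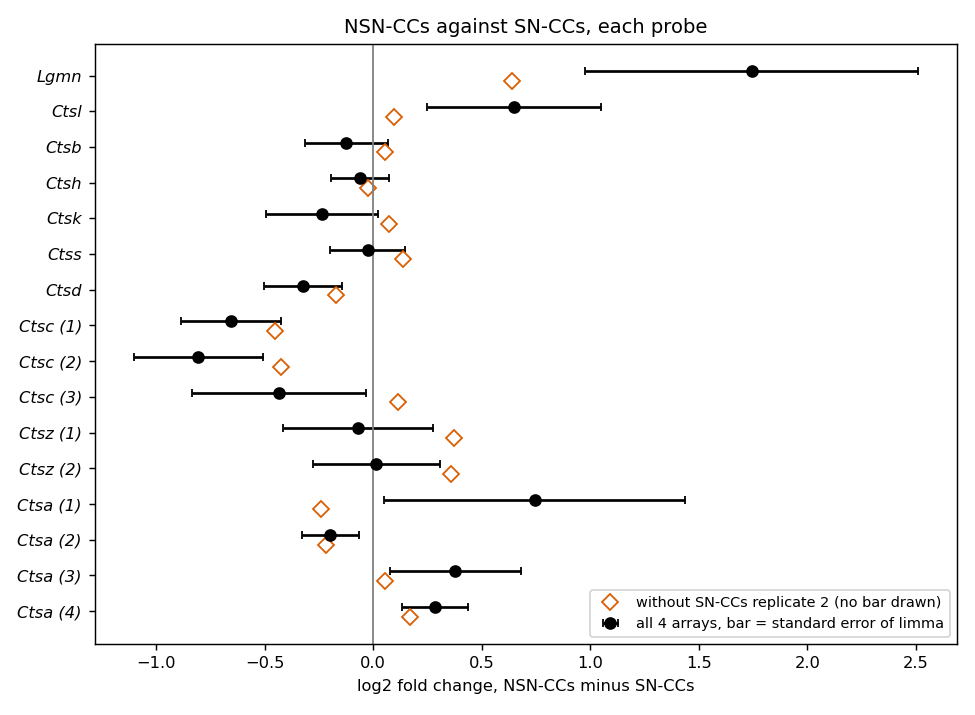
Log2 fold change (NSN-CCs minus SN-CCs, horizontal axis) of each legumain, cathepsin and Ctsa probe, with black points and standard error bars of limma for all 4 arrays and open diamonds for the same value without SN-CCs replicate 2. Lgmn moves from 1.74 to 0.64 and Ctsl from 0.65 to 0.097, whereas the first 2 Ctsc probes stay below 0.

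Together, 3 of the 12 probes had a log2 fold change above 0 and 9 below 0, with a median of −0.097. Over all probes 44% were above and 56% below 0, with a median of −0.033. Of the 10598 probes above the limit on all arrays, as the 12 were, 3980 were above and 6618 below 0, with a median of −0.13. Without SN-CCs replicate 2 the balance turned to 8 above and 4 below 0, with a median of 0.084, whereas over all probes 49.8% were above and 50.2% below 0, with a median of −0.0012. The groups did not overlap on 6 of the 12 probes. Both NSN-CCs arrays were above both SN-CCs arrays for Lgmn, which was chosen for it, and Ctsl (2 of 12, 16% of all probes), and both were below for Ctsd, Ctsh and 2 probes of Ctsc (4 of 12, 22.2% of all probes). With SN-CCs replicate 2 left out, both NSN-CCs arrays were above the remaining SN-CCs array on 6 probes and below it on 4, where the share over all probes was 35.8% in each direction. Without SN-CCs replicate 1 in its place, 7 of the 11 cathepsin probes passed an adjusted p of 0.05 from limma, when 37.3% of all probes did so as well.

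The spread between pools was wider in SN-CCs than in NSN-CCs on all 12 probes, and this held for 72.27% of all probes and for 88.28% of those above the limit on all arrays. The median SD of the 12 probes was 0.46 (log2) between the SN-CCs pools and 0.127 between the NSN-CCs pools, against 0.189 and 0.0815 over all probes. Over the probes above the limit on all arrays, which the 12 were, it was 0.37 and 0.072. After normalisation SN-CCs replicate 2 was the highest of the 4 arrays on 10 of the 12 probes and the lowest on the other 2, Lgmn and Ctsl. Over all probes it was highest on 44.66% and lowest on 29.34%, and over those above the limit on all arrays on 59.13% and 29.39%. In the deposited signals it was highest on 6 and lowest on 2 of the 12 probes, where the shares over all probes were 30.3% and 37.2%. Of the 10598 probes above the limit on all arrays it was highest on 4217 and lowest on 4554.

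**Figure D3:**
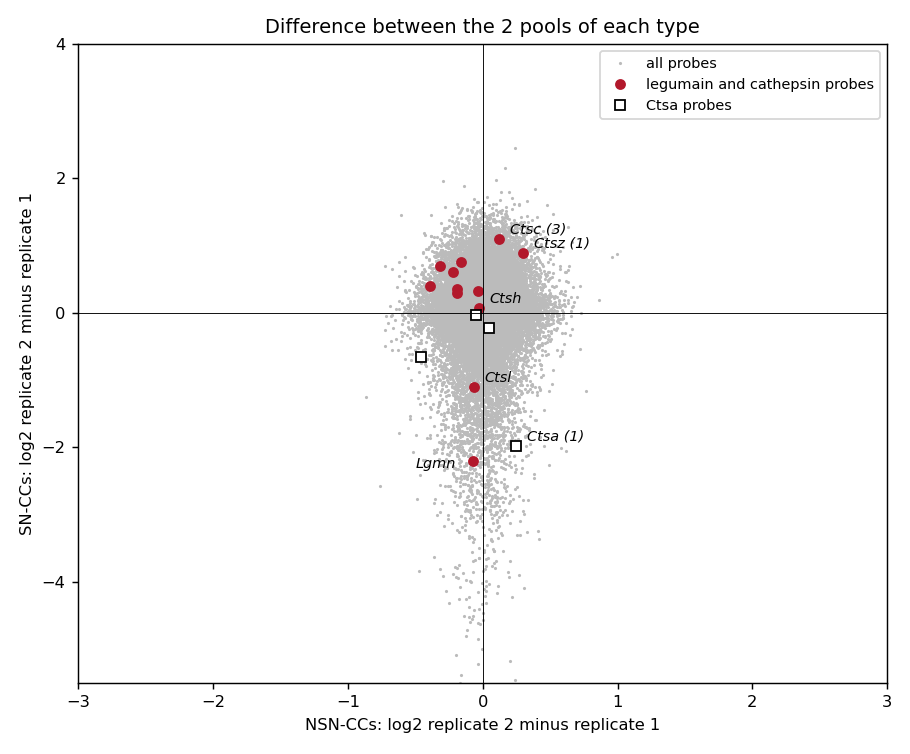
Step from replicate 1 to replicate 2 (log2, normalised) within NSN-CCs (horizontal axis) and within SN-CCs (vertical axis), with grey points for all probes, red points for the 12 legumain and cathepsin probes and open squares for the 4 Ctsa probes. Lgmn lies at −2.20 and Ctsl at −1.10 on the vertical axis and close to 0 on the horizontal axis, and 4 probes fall outside the axes.

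Whether probes of the same gene moved alike between the SN-CCs pools was examined after the values had been seen, since Lgmn and Ctsl have 1 probe each. It could be asked of 25 genes of the lysosomal lists and the members that have 2 or more probes above the limit on the other 3 arrays (63 probes). In 15 of them (60%) the step from SN-CCs replicate 1 to replicate 2 differed by more than 1 on the log2 scale between probes of the gene, whereas this was so in 0 of 25 for the NSN-CCs pools. Over all 2368 genes with such probes the shares were 43.88% and 0.1267%. SN-CCs replicate 2 did not have to be above the limit here, whereas both NSN-CCs arrays did. This choice of probes leaves room for wider steps in SN-CCs, so the counts of the 2 types are not a like comparison. Atp6v0d1, a subunit of the proton pump, had 1231 and 93.9 in the SN-CCs pools on ILMN_1258534 and 1311 and 79.7 on ILMN_2608429, but 2084 and 2168 on ILMN_2685365. Igf2r, the receptor that carries enzymes tagged with mannose 6-phosphate to lysosomes, had 1415 and 254 in the SN-CCs pools on ILMN_2931096 but 1499 and 2096 on ILMN_2931095. Cd63, a membrane protein of late endosomes and lysosomes, had 1198 and 167 on ILMN_3052430 but 2328 and 2552 on ILMN_3128907. Asah1, the acid ceramidase, had 818 and 131 on ILMN_2629591 but 12310.4 and 12791 on ILMN_1231966. Probes of these genes thus placed SN-CCs replicate 2 differently. Among the members with several probes, the steps of the 3 Ctsc probes were 0.40, 0.77 and 1.10 and those of the Ctsz probes 0.89 and 0.69. All were upward after normalisation, but in the deposited signals the Ctsc probe ILMN_1238486 fell from 235 to 205. The steps of the 2 Ctsa probes that could be included were −1.97 and −0.23, so Ctsa was 1 of the 15 genes. The place of the probes on their transcripts is not given in the sources used here, and its part in these steps was not tested.

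**Figure D4:**
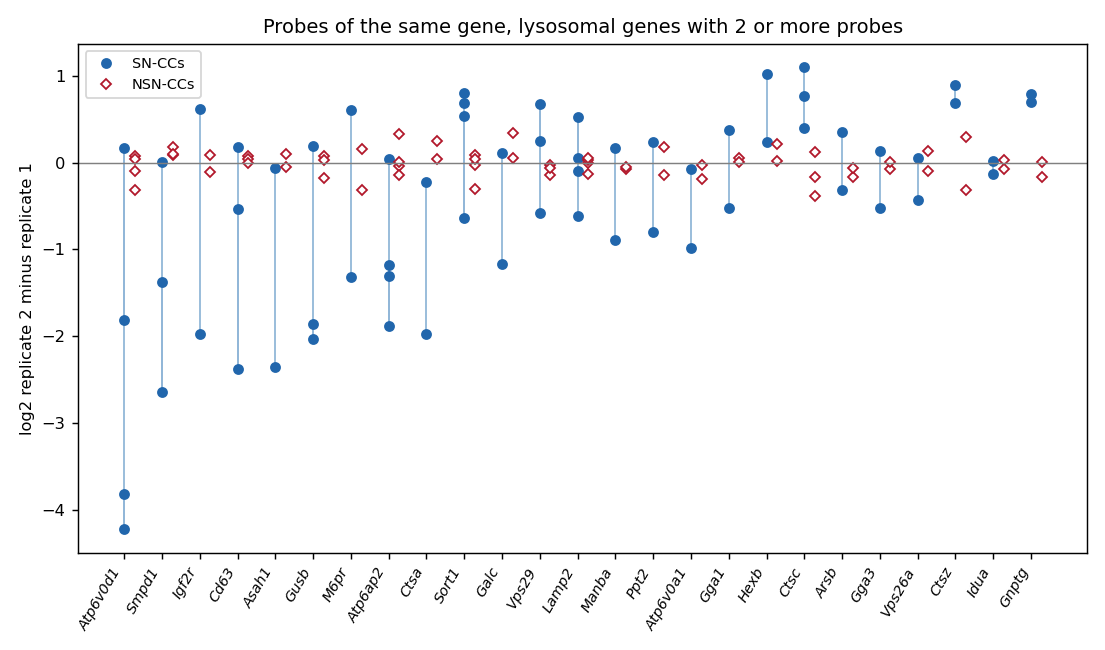
Step from replicate 1 to replicate 2 (log2, normalised, vertical axis) for each probe of 25 lysosomal genes with 2 or more probes, with blue points for SN-CCs, joined by a line per gene, and red diamonds for NSN-CCs. Genes are ordered by the spread of the SN-CCs steps, which exceeds 1 in 15 genes, whereas that of the NSN-CCs steps exceeds 1 in 0. Probes had to be above the limit on all arrays but SN-CCs replicate 2.

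The remaining cathepsins were mostly at background. Of the 5 other cathepsins 4 were above the limit on no array, with signals between 84.7 and 112, and of the 8 cathepsins that mouse placenta expresses 7 were above it on no array, with signals between 77.2 and 116.0. The eighth of these, Cts6, was above it on 1 array of each type, and its 4 signals lay between 103 and 128. Ctsf, a cysteine cathepsin of antigen-presenting cells and other tissues, was above the limit on all arrays (ILMN_2615879). It gave 492 and 149 in the SN-CCs pools against 655 and 705 in the NSN-CCs pools. With SN-CCs replicate 2 the lowest array, its log2 fold change was 1.24 (SE 0.46, limma adjusted p = 0.811), and 0.60 without that array.

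Among the 9 cathepsin inhibitors with a probe, Cst3 and Cstb were above the limit on all arrays and 6 were above it on no array. Cst3, the secreted cystatin C that inhibits cysteine cathepsins and legumain, gave signals of 8974 and 8067 in the SN-CCs pools against 10697 and 10293 in the NSN-CCs pools. Both NSN-CCs pools were above both SN-CCs pools. The log2 fold change was 0.54 (SE 0.15, unadjusted p = 0.0204 and adjusted p = 0.811 from limma). It was 0.43 without SN-CCs replicate 2. Cst3 was the 1 gene of the list higher at an unadjusted p under 0.05, as 1.09% of all probes were, and 0 were lower. With median scaling of the arrays its log2 fold change was 0.25 (limma unadjusted p = 0.137). Of the 9 genes 3 were higher and 6 lower, with a median of −0.045, and 6 were higher and 3 lower without that array, with a median of 0.056.

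The medians of the other lysosomal lists lay below that of all probes (−0.033), and 0 of their genes passed an adjusted p of 0.05 from limma. Taking the brightest probe of each gene, as for the lists, 6909 of 17233 genes were above 0 and 10324 below it. Their median was −0.056, and 0.00094 without SN-CCs replicate 2. Probes above the limit on all arrays, as those of 34 of the 42 hydrolases were, had a median of −0.13. Of 42 other lysosomal hydrolases 13 were higher and 29 lower in NSN-CCs (median −0.12), and 26 were higher and 16 lower without SN-CCs replicate 2 (median 0.048). At an unadjusted p under 0.05, 1 of them was lower (2.02% of all probes) and 0 were higher (1.09%). It was Ids, the iduronate sulfatase that takes part in the breakdown of glycosaminoglycans, with 1912 and 1809 in the SN-CCs pools against 1297 and 1247 in the NSN-CCs pools on ILMN_3114518. Its log2 fold change was −0.50 (SE 0.13), and −0.46 without SN-CCs replicate 2, but its other 2 probes, with signals near the limit, gave 0.081 and 0.25. The sulfatases Arsb (−0.41) and Sgsh (−0.60) were the next lowest by p, and among the higher genes with the smallest p were Psap (0.31), the precursor of saposins, and Smpd1 (0.23), all short of the threshold. Without SN-CCs replicate 2 these 4 values were −0.23, −0.21, 0.21 and 0.23. With median scaling Psap was 0.045. The other probe of Arsb gave −0.010, and the others of Smpd1 0.65 and 1.66. In the same order these were −0.17, −0.033 and 0.34 without SN-CCs replicate 2.

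Of 26 genes of the lysosomal membrane and proton pump, 12 were higher and 14 lower (median −0.14), and 13 and 13 without SN-CCs replicate 2 (median 0.011). Lamp2, a main glycoprotein of the lysosomal membrane, was the 1 gene lower at an unadjusted p under 0.05. Its brightest probe (ILMN_1217454) gave 9432 and 10277 in the SN-CCs pools against 6671 and 5993 in the NSN-CCs pools, a log2 fold change of −0.39 (SE 0.14), and −0.37 without that array. The other Lamp2 probes did not share this value, with log2 fold changes of −0.54, 0.0071 and 0.54, and of −0.28, −0.038 and 0.23 without that array. The pump genes Atp6v1d (−0.28) and Atp6ap2 (−0.26) were lower and Atp6v0a1 (0.27), Cd63 (0.55) and Ostm1 (0.44) higher, all short of the threshold. Without SN-CCs replicate 2 those of Cd63 and Ostm1 were 0.28 and 0.10, and the others −0.22, −0.24 and 0.23. The other 3 probes of Atp6ap2 had the opposite sign (0.44, 0.29 and 0.96), and those of Cd63 (1.25 and 0.12) and Atp6v0a1 (0.35) the same. With SN-CCs replicate 2 left out these were −0.21, −0.30 and 0.014 for Atp6ap2. Those of Cd63 were then 0.057 and 0.21, and that of Atp6v0a1 was −0.14.

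Of 15 genes of enzyme sorting and lysosomal transcription factors, 5 were higher and 10 lower (median −0.17), and 6 and 9 without SN-CCs replicate 2 (median −0.0024). Vps29, a subunit of the retromer that returns sorting receptors from endosomes, was the 1 gene lower at an unadjusted p under 0.05, with 4325 and 5368 in the SN-CCs pools against 3150 and 3030.1 in the NSN-CCs pools on ILMN_2955883. Its log2 fold change was −0.47 (SE 0.16), and −0.35 without that array. The other Vps29 probes gave 0.013 and −0.95, and −0.28 and −0.61 without that array. Vps35, another subunit of the same complex, had 1316 and 235 in the SN-CCs pools against 1192 and 1180.2 in the NSN-CCs pools. This gave a log2 fold change of 0.99 with SN-CCs replicate 2 and −0.0015 without it. The values of Gnptab (−0.51), Igf2r (−0.43), Gga1 (0.46) and Gga3 (0.24) also missed the threshold, and they were −0.016, −0.12, 0.20 and −0.020 without SN-CCs replicate 2. The other probe of Igf2r gave 1.10 and that of Gga3 −0.040, both of opposite sign, and the others of Gga1 gave 0.34 and 0.18. In the same order these were 0.11, 0.025, −0.0077 and 0.37 without SN-CCs replicate 2.

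**Figure D5:**
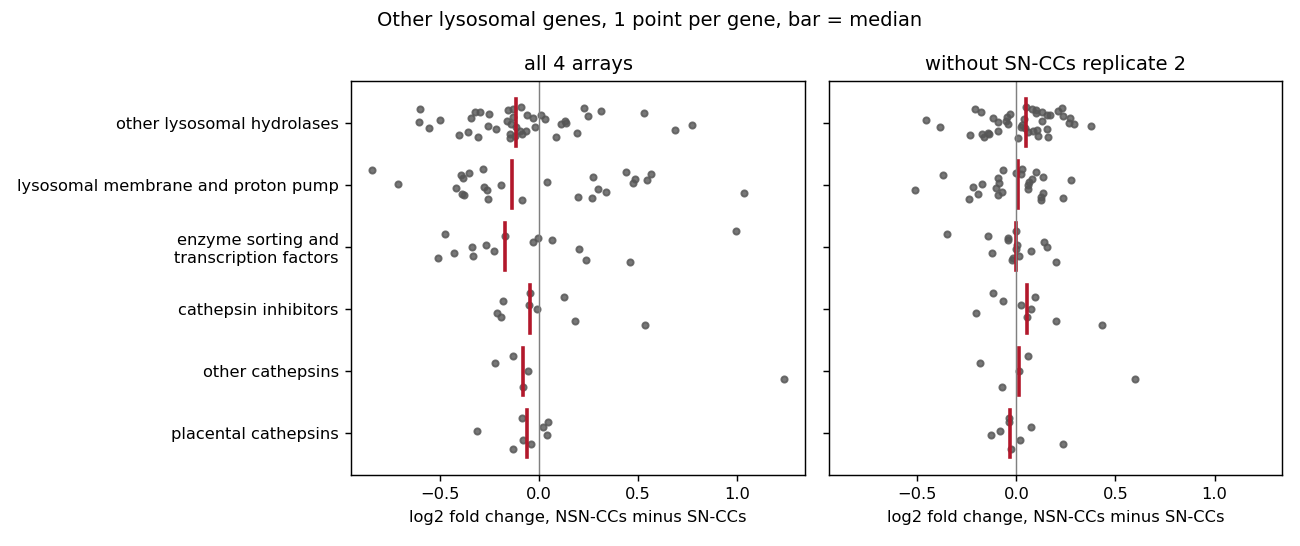
Log2 fold change (NSN-CCs minus SN-CCs, horizontal axis) of the brightest probe of each gene in 6 lysosomal lists, with all 4 arrays on the left and without SN-CCs replicate 2 on the right, grey points for genes and red bars for medians. The medians lie between −0.17 and −0.045 on the left and between −0.030 and 0.056 on the right.

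Some cathepsins are also abundant in macrophages, and markers of leukocytes were therefore read in the same pools. Of 21 macrophage and leukocyte markers 10 were above the limit on all arrays and 3 on none. They were 6 higher and 15 lower in NSN-CCs, and 17 higher and 4 lower without SN-CCs replicate 2. Their summed signal was 3656 and 3730.1 in the SN-CCs pools against 3845 and 3981 in the NSN-CCs pools. Ptprc, the leukocyte antigen CD45, was above the limit on no array, Cd68 was above it on 1 of the NSN-CCs arrays (109 and 93.4 in the SN-CCs pools against 116 and 124 in the NSN-CCs pools), and Csf1r was just above it on all 4 (129.6 and 131 in the SN-CCs pools against 146 and 136 in the NSN-CCs pools). The C1q genes, complement components made by macrophages, had the smallest p among the 6 higher markers: C1qb gave 133 and 109.6 in the SN-CCs pools against 159 and 181.6 in the NSN-CCs pools (log2 fold change 0.46, SE 0.16, limma unadjusted p = 0.0449), C1qc gave 142 and 98.6 against 156 and 165 (0.44), and C1qa gave 106 and 101 against 132 and 118, above the limit in NSN-CCs only. Among the 15 lower markers Mrc1 had the smallest p, with 154 and 141 in the SN-CCs pools against 134 and 132 in the NSN-CCs pools. Its log2 fold change was −0.37 (SE 0.16, limma unadjusted p = 0.0862). Without SN-CCs replicate 2 it was −0.22, and those of C1qb, C1qc and C1qa were 0.36, 0.18 and 0.22. All 13 oocyte markers with a probe had a log2 fold change below 0, with and without SN-CCs replicate 2, where 56% and 50.2% of all probes did. Of the 13, 9 were above the limit on all arrays and 2 on none. The values ran from −1.02 (Oosp1) to −0.024 (Padi6), and from −0.60 to −0.0085 without that array. The summed signal of the 13 was 5610.2 and 6133 in the SN-CCs pools against 4487 and 4457 in the NSN-CCs pools. Of 13 granulosa and cumulus markers 11 were higher and 2 lower in NSN-CCs, and 8 and 5 without SN-CCs replicate 2. Their summed signal was lowest on that array (174557 and 110051 in the SN-CCs pools against 169315 and 162289 in the NSN-CCs pools). This sum leans on a few bright probes. The Inha probe gave 46056 and 3760 in the SN-CCs pools against 45170 and 43879 in the NSN-CCs pools, whereas Cyp19a1 and Inhba were highest on SN-CCs replicate 2. The sum is therefore not a measure of the share of cumulus cells in a pool. The part of these cells in the values of the proteases was not tested.

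The genes with a pattern over the 4 arrays most like that of Lgmn were sought among 10343 probes with a gene symbol that were above the limit on all arrays, by the distance between their log2 values after centring each probe on its own mean. The nearest were Tnfrsf12a (distance 0.10), the receptor of the cytokine TWEAK, Ccn1 (0.19), a matricellular protein, Scand1 (0.23), H13 (0.25), an intramembrane protease that clears signal peptides, and Lmna (0.27), a protein of the nuclear lamina. Tnfrsf12a gave 4359 and 818 in the SN-CCs pools against 5736 and 5653 in the NSN-CCs pools. Ccn1 gave 985 and 152 in the SN-CCs pools against 1254 and 1129 in the NSN-CCs pools. In all 5 genes, as in Lgmn, SN-CCs replicate 2 was far below the other arrays, so the likeness is largely that of 1 array, and their log2 fold changes without it lay between 0.37 and 0.70. Among the 11 cathepsin probes found under the listed symbols, that of Ctsl was nearest to Lgmn, at a distance of 1.34 with 794 probes nearer, and the others lay at 2.42 to 3.30. The brightest Ctsa probe was nearer (1.04, with 460 probes nearer), as was Ctsf (0.84, with 298 probes nearer), and in both SN-CCs replicate 2 was also the lowest array.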

How the data were processed

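RNA of the 4 pools, 2 per type of CCs, was amplified by the authors in repeated rounds and hybridised to Illumina mouse-8 BeadChips. The first deposited table holds intensities as summarised by BeadStudio (version 3 in the processing notes, another version in the methods), with no background subtraction and no scaling between arrays. The second deposited table holds intensities that the authors background-subtracted and normalised by the rank invariant algorithm, and served as an alternative. Neither holds detection p-values or counts of beads. The number of arrays limits the precision.

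Signals of all 25697 probes were corrected by normexp (offset 50), quantile normalised and log2 transformed, and lmFit and eBayes of limma 3.58.1 (R 4.3.3) were run without covariates, with Benjamini-Hochberg adjustment over all probes and a threshold of 0.05. The fit was tested on simulated data in which all arrays had a spread taken from the NSN-CCs pair. That test therefore does not cover the wider spread between the SN-CCs pools. Groups and replicate numbers came from the titles. Gene symbols came from the platform annotation, updated through a gene table (16 gene IDs were not in it), and 997 of the 1719 probes that the annotation leaves unnamed took the symbol of the signal table, so that 24975 probes had 1 symbol (17233 genes). For lists, the probe of each gene with the highest mean level was used. The list genes named are the 3 higher and 3 lower with the smallest p of each lysosomal list, with values or, for those at background, within the ranges given, except 1 that is not reported here. The 5 genes named for their likeness to Lgmn had the smallest distance to its probe, and Cyp19a1, Gdf9, Cd68, Csf1r and Ptprc were named as checks of the cells. The C1q genes and Mrc1 were named by their p within the marker list, and Tfeb, Tfec, Mitf and Tfe3 beside the E-box. The steps between pools among probes of 1 gene were compared after the values were seen, and so were the genes named there chosen. The members and lists were chosen with earlier results of these data known. No test of gene sets was run.

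A total of 10 alternatives were tried: no background correction, an offset of 16, median scaling, the authors' normalised values, removal of dim probes, the replicate number as a block, and leaving out each array. The main fit did not pair pools by replicate number. The correlation of deviations of same-numbered pools was 0.0414 over all probes. Since SN-CCs replicate 2 stands apart from the other arrays, this value cannot show whether same-numbered pools belong together.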

Additional observations from a re-analysis of the deposited data

How the results depend on the processing

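Lgmn, chosen for being higher in NSN-CCs, kept this direction under all 10 alternatives, which describes the value and does not test it. Its log2 fold change was 1.51 to 1.85 in the settings that keep all arrays and 0.64 to 2.85 when an array was left out. Removal of dim probes and the replicate number as a block cannot change this estimate, which was 1.74 in both. The number of the 11 cathepsin probes past an adjusted p of 0.05 stayed at 0 in the settings with all arrays and was 0 to 7 when an array was left out. It was 7 only without SN-CCs replicate 1, where 9582 of 25697 probes passed. The number of probes lower in NSN-CCs, 9 of 12, was 4 to 10 when an array was left out, and the median of the 12 probes −0.40 to 0.084. With the replicate number as a block, the log2 fold change of Lgmn was 1.74 and 0 of the 11 cathepsin probes passed, against 0 without it. The count of all probes at an unadjusted p under 0.05 was 610 with the block and 800 without it, and it was 855 with no background correction, 630 with an offset of 16, 1144 with median scaling, 49 with the authors' normalised values and 230 of 13885 probes with dim probes removed.

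The authors' normalised values, in which the median of all probes was −0.43, moved the median of the other cathepsins to −0.56, of the placental cathepsins to −0.53 and of the inhibitors to −0.50. In these values both the lowest value and the median over all probes were higher on SN-CCs replicate 2 than on each other array. Dim probes, of which these lists mostly consist, are therefore not read on a like scale across the arrays there. With dim probes removed the first became 1.24, the value of Ctsf, the 1 gene left, and the inhibitors 0.26. Leaving out an array gave the inhibitors −0.090 to 0.056.

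Some probes changed sign. With the authors' values ILMN_2666007 of Ctsz became 0.013 and the Ctsa probes ILMN_3120827 and ILMN_3045359 −0.21 and −0.27. With median scaling Ctss became 0.072 and ILMN_2839569 of Ctsz −0.051. Leaving out an array gave ranges across 0 of −0.33 to 0.36 for ILMN_2839569 and −0.52 to 0.37 for ILMN_2666007 of Ctsz, −0.30 to 0.056 for Ctsb, −0.98 to 0.12 for ILMN_3008859 of Ctsc, −0.54 to 0.071 for Ctsk, −0.19 to 0.14 for Ctss, −0.24 to 1.73 for ILMN_1213617 of Ctsa, −0.020 to 0.50 for Gga3 and −0.0015 to 1.99 for Vps35. Over the settings that keep all arrays, the unadjusted limma p lay between 0.0150 and 0.257 for Cst3, 0.0094 and 0.317 for Ids, 0.0128 and 0.277 for Lamp2, 0.0241 and 0.265 for Vps29, and 0.0440 and 0.163 for ILMN_1238486 of Ctsc. The causes were not tested.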
